A study of Mus musculus with 2 samples.

Results

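The glutathione transferases, UDP-glucuronosyltransferases and sulfotransferases are the enzymes that attach glutathione, glucuronic acid or sulfate to hormones, lipid products and foreign compounds. Their genes were taken by symbol (Gsta, Gstk, Gstm, Gsto, Gstp, Gstt, Gstz, Mgst, Ugt1 to Ugt3 and Sult1 to Sult6) where the annotation gives at least 1 protein-coding transcript. This gave 67 genes of the 55536 genes in the tables, namely 25 glutathione transferases, 21 UDP-glucuronosyltransferases and 21 sulfotransferases. A further 8 genes with a matching symbol have no protein-coding transcript and were left out. The tissue was the adrenal gland of 2 adult female B6CASTF1/J mice, F1 hybrids of a C57BL/6J and a CAST parent, aged 8 to 10 months, and total RNA was sequenced from 300 ng with ERCC spike-ins. Both carry the same genotype, and the labels name no treatment, so they form 1 group and no contrast between conditions exists. The first replicate is the animal the labels number 1, and the second the one numbered 3. Their donor code is the same, so their separateness rests on those animal numbers. Spread between them is given as the SD (n = 2), and no p-value can be had from 1 library on each side.

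Glutathione transferases join the thiol of glutathione to electrophilic carbon atoms, and several also reduce peroxides or isomerise their substrates. The soluble classes differ from the membrane-bound Mgst proteins, which are unrelated in fold. UDP-glucuronosyltransferases sit in the endoplasmic reticulum and most use UDP-glucuronic acid, and cytosolic sulfotransferases use the sulfate donor PAPS. Liver, intestine and kidney are the organs best known for these reactions, while the adrenal cortex makes the steroid hormones that are among their substrates. Glutathione-dependent enzymes also handle the peroxides and reactive lipid products formed where mitochondrial P450 enzymes are active.

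The libraries held 40453707 and 34319787 expected counts for replicates 1 and 2, and 3 counts, taken as the limit of detection, equal 0.0742 and 0.0874 CPM, the count scaled to library size. Levels are given as TPM, in which counts are divided by transcript length and scaled to a constant sum. Cortex markers marked the tissue as labelled, with 7 of 7 at 10 TPM or more in both animals and a median of 3403 TPM, and 6 of 6 medulla markers also passed 10 TPM. Other cell types were present as well. Adipocyte markers summed to 1433 TPM in replicate 1 and 728.2 TPM in replicate 2, and 5 of 7 were at least 2-fold lower in replicate 2 by the rule given below. Fibroblast markers summed to 131.4 and 87.52 TPM, and liver markers to 97.17 and 77.63 TPM, although 7 of the 8 liver markers were higher in replicate 2. Of 6 kidney markers 5 were listed at 0 in both animals. In a bulk sample, fewer cells of a type and less RNA per cell cannot be told apart.

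The adrenal gland carried a glutathione transferase profile with few transcripts of the other families. At 1 TPM or more in both animals stood 26 of the 67 genes (38.8%), against 54.5% of nuclear protein-coding genes. By family these were 20 of 25 glutathione transferases, 3 of 21 UDP-glucuronosyltransferases and 3 of 21 sulfotransferases. No gene passed 1 TPM in only 1 animal. At 100 TPM or more stood 4 genes (5.97%), against 2.31% of protein-coding genes, and all 4 (Mgst1, Gstm1, Gstp1 and Gstk1) were glutathione transferases. The 67 genes summed to 1696 TPM in replicate 1 and 1660 TPM in replicate 2, which is 0.479% and 0.463% of the TPM of protein-coding genes. Glutathione transferases held 96.9% ± 0.232 of that sum (SD, n = 2), UDP-glucuronosyltransferases 1.96% ± 0.143 and sulfotransferases 1.12% ± 0.0890. In expected counts, which are not divided by length, the glutathione transferase share was 92.3% in replicate 1 and 93.0% in replicate 2.

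**Figure D1:**
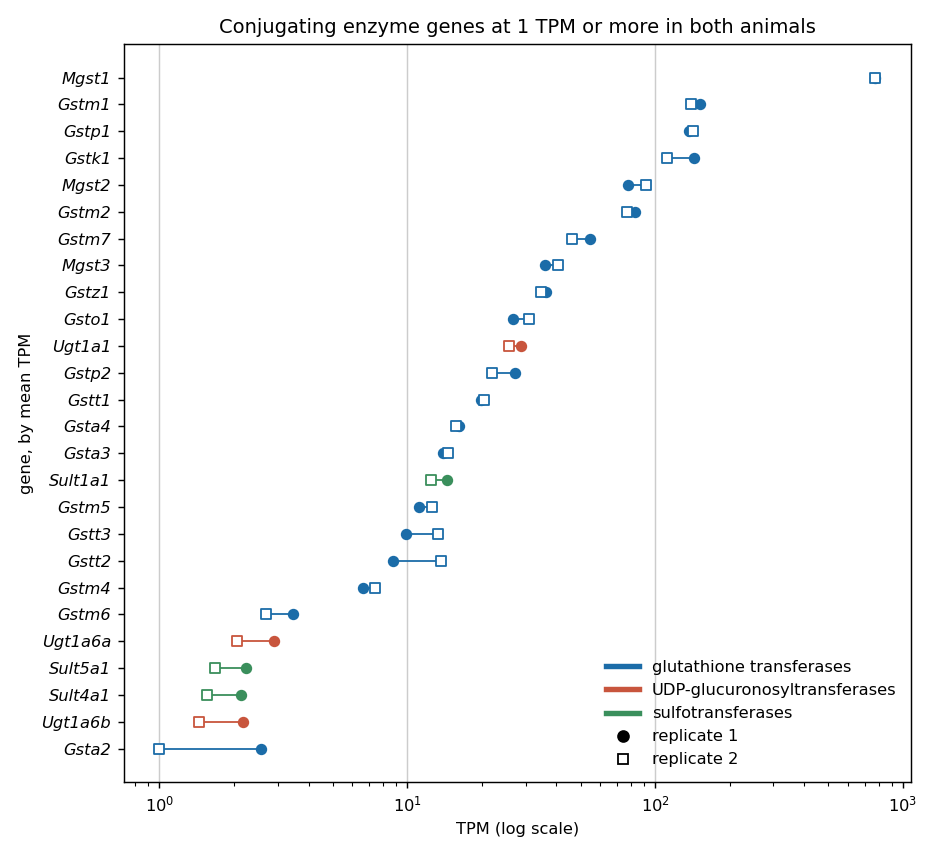
TPM on a log axis of the 26 conjugating enzyme genes at 1 TPM or more in both animals, ordered by their mean, with replicate 1 as filled circles and replicate 2 as open squares and the family as colour. Mgst1 stands apart at 773 TPM, the animals lie close together for most genes, and the widest gap is that of Gsta2 (2.58 and 1.00 TPM).

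Mgst1, a membrane-bound glutathione transferase of the endoplasmic reticulum and the outer mitochondrial membrane that also reduces lipid peroxides, was the highest of the 67 genes. It stood at 774.05 and 772.58 TPM in replicates 1 and 2, a mean of 773.3 ± 1.04 (SD, n = 2), and ranked 21 among all nuclear protein-coding genes. That was 46.1% ± 0.628 of the summed TPM of the 67 genes and 5.33 ± 0.316 times the level of Gstm1, the next gene by mean TPM (in replicate 2 Gstp1 was the next). Mgst2, a relative that can also form cysteinyl leukotrienes, was at 77.75 and 92.02 TPM, and Mgst3, another member of that class, at 35.99 and 40.42 TPM. Replicate 2 was the higher one for both of these genes, and the deposited intervals of the animals did not overlap. Mgst1 shares none of its 31-mers with another gene, so its reads can be told from those of its relatives.

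Most of the alignment-based TPM of Mgst1 began at 1 start. Mgst1 (ENSMUSG00000008540.11) lies on chromosome 6 from 138140316 to 138156755 on the plus strand of mm10, and RefSeq gives it a pair of start sites. Transcripts that begin within 100 bases of the upstream one held 94.7% and 95.3% of the gene's TPM in replicates 1 and 2, against 0.537% and 0.743% for the downstream one. Mgst1-204, a protein-coding transcript of 559 bases, was the highest in both animals and both quantifications, with 42.7% ± 0.574 of the alignment-based TPM. The 250 bases before the upstream start (GRCm38.p6, chr6:138140277-138140526, plus strand, from RefSeq) are shown because nearly all alignment-based TPM of Mgst1 began next to them. They hold a match to the antioxidant response element bound by NRF2. Capitals mark that match, which is to the letters TGACNNNGC on the minus strand and begins 56 bases before the start.
Mgst1 upstream: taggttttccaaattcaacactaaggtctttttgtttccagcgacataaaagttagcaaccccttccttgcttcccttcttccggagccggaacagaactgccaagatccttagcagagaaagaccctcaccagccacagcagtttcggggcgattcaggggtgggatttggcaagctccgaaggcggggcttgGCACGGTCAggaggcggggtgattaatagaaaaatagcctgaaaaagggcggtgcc

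The mu class, a cluster of 7 genes on chromosome 3, was the second most abundant class with 310.7 TPM in replicate 1 and 284.8 TPM in replicate 2. Gstm1, whose protein conjugates many epoxides and other electrophiles, led it at 151.57 and 139.10 TPM. Gstm2 followed at 83.19 and 76.78 TPM and Gstm7 at 54.64 and 46.26 TPM. All 3 were lower in replicate 2, with deposited intervals that did not overlap. Their proportions barely moved, since Gstm1 held 48.78% and 48.84% of the class in the 2 animals and Gstm2 26.78% and 26.96%. Gstm5 was lower at 11.13 and 12.58 TPM, and its intervals overlapped between the animals. Below 10 TPM were Gstm4 (7.03 ± 0.530 TPM), Gstm6 (3.08 ± 0.530 TPM) and Gstm3, with 3.14 and 0 counts. Position in the cluster did not order the levels. Gstm1 and Gstm2 are neighbours, with Gstm3 (0.035 TPM) next to Gstm2 on the other side, and Gstm4 (7.03 TPM) on the far side of Gstm1.

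The pi class was carried by Gstp1, with 136.98 and 142.85 TPM in the animals, a mean of 139.9 ± 4.15 (SD, n = 2). Pi-class enzymes conjugate small electrophiles and bind stress-activated kinases. Gstp2, the neighbouring gene, was at 27.25 and 21.94 TPM, so that Gstp1 was 5.03 and 6.51 times higher in the 2 animals. Gstp3 had 9 and 2 counts. The deposited intervals overlapped between the animals for both Gstp1 and Gstp2. The class summed to 164.6 and 164.9 TPM, and to 3979 and 3275 expected counts. The split between Gstp1 and Gstp2 rests on few bases of the reference sequence. Their coding sequences are 98.1% identical, with 12 mismatches in 633 bases and a longest identical run of 303 bases. A stretch of 240 coding bases (1 to 240 counted from the start codon, with 6 of the 12 mismatches) is shown. No stretch of this length differs at more positions. Gstp1 lies on chromosome 19 from 4035407 to 4037985 and Gstp2 from 4040285 to 4046023, both on the minus strand of mm10. Capitals mark the mismatches.
Gstp1 coding: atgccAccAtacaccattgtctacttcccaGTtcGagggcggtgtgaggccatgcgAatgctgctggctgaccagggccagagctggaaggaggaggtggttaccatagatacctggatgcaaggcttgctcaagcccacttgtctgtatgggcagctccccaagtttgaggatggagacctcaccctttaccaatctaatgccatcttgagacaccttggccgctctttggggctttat
Gstp2 coding: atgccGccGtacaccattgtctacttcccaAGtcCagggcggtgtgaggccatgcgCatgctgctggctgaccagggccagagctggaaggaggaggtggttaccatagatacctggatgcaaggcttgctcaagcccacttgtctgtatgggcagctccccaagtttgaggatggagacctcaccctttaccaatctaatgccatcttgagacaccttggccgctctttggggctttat

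The alpha class, which conjugates products of lipid peroxidation, summed to 32.8 and 31.7 TPM in the animals. Gsta4, the form with highest known activity towards hydroxyalkenals, was at 16.18 and 15.73 TPM. Gsta3, whose human counterpart isomerises steroid precursors, was at 13.88 and 14.62 TPM. The deposited intervals overlapped between the animals for both genes. Gsta2 was at 2.58 and 1.00 TPM (68.83 and 25.40 counts) and Gsta1 at 0.12 and 0.36 TPM (3.57 and 9.27 counts). The pair is 97.5% identical in coding sequence, with 14 mismatches. Of the 31-mers of Gsta1 92.9% also occur in other genes, with 80.3% in Gm3776, a related gene outside the symbol rule. For Gsta2 the share is 60.7%, with 44.7% in Gsta1. Both lie on chromosome 9 of mm10, Gsta1 from 78230656 to 78242684 on the plus strand and Gsta2 from 78331018 to 78355788 on the minus strand. Coding bases 428 to 667 are shown because they hold 11 of the 14 mismatches, which are in capitals.
Gsta1 coding: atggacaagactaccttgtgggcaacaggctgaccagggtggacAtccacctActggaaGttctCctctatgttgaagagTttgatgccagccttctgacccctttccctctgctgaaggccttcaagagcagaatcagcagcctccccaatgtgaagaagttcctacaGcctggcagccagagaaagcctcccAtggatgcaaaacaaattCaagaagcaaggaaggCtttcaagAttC
Gsta2 coding: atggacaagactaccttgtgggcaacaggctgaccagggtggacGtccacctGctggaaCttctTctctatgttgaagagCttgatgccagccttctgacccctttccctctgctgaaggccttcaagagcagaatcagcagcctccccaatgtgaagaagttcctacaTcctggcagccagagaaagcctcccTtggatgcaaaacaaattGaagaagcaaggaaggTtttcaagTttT

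Gstk1, the kappa-class enzyme of mitochondria and peroxisomes, stood at 143.08 and 111.49 TPM in replicates 1 and 2, and the deposited intervals did not overlap. It had the lowest log2 ratio (replicate 2 over replicate 1, -0.45) of the 19 genes at a mean of 10 TPM or more. A single transcript, Gstk1-201, held 98.8% ± 0.380 of its TPM (SD, n = 2). Gstk1 is shown with the 250 bases before its RefSeq start (GRCm38.p6, chr6:42245685-42245934, plus strand), where its transcripts begin. Of the members at 10 TPM or more with a RefSeq window it was the only one to hold the element AAGGTCA, which the cortical factor NR5A1 (SF-1) binds. Capitals mark the match, on the minus strand and beginning 141 bases before the start.
Gstk1 upstream: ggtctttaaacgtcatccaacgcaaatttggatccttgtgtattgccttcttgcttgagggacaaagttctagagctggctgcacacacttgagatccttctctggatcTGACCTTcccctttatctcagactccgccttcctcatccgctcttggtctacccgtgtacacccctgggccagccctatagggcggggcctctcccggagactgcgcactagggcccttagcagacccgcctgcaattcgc

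The zeta, omega and theta classes summed to 35.3, 29.4 and 42.9 TPM as means over the animals. Gstz1, the maleylacetoacetate isomerase of tyrosine breakdown, was at 36.12 and 34.50 TPM, and Gsto1, an omega-class enzyme that reduces dehydroascorbate, at 26.69 and 30.90 TPM. The animals' intervals overlapped for both. Gstz1 overlaps Pomt2 (5.32 TPM) and Gsto1 overlaps Cfap43 (0.04 TPM) on the opposite strand. The sources used here do not give whether counting was by strand, so reads of such pairs may be mixed. Of the theta class, known for dehalogenating small halogenated compounds, Gstt1 was at 19.79 and 20.43 TPM, Gstt3 at 9.87 and 13.31 TPM and Gstt2 at 8.76 and 13.62 TPM. Gstt3 and Gstt2 were higher in replicate 2, with intervals that did not overlap, while those of Gstt1 did. Gstt1 therefore held 51.5% of the class in replicate 1 and 43.1% in replicate 2. The highest transcript of Gstt2, Gstt2-201, held 67.0% of its alignment-based TPM in replicate 1 and 27.2% in replicate 2. This was the widest such gap among the 19 genes in that quantification. In the index-based one the shares of Gstt2-201 were closer, at 60.9% and 39.0%. Gsto2 stayed below 1 TPM, at 0.36 and 0.90 TPM, and Gstt4 was listed at 0 in both animals.

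**Figure D2:**
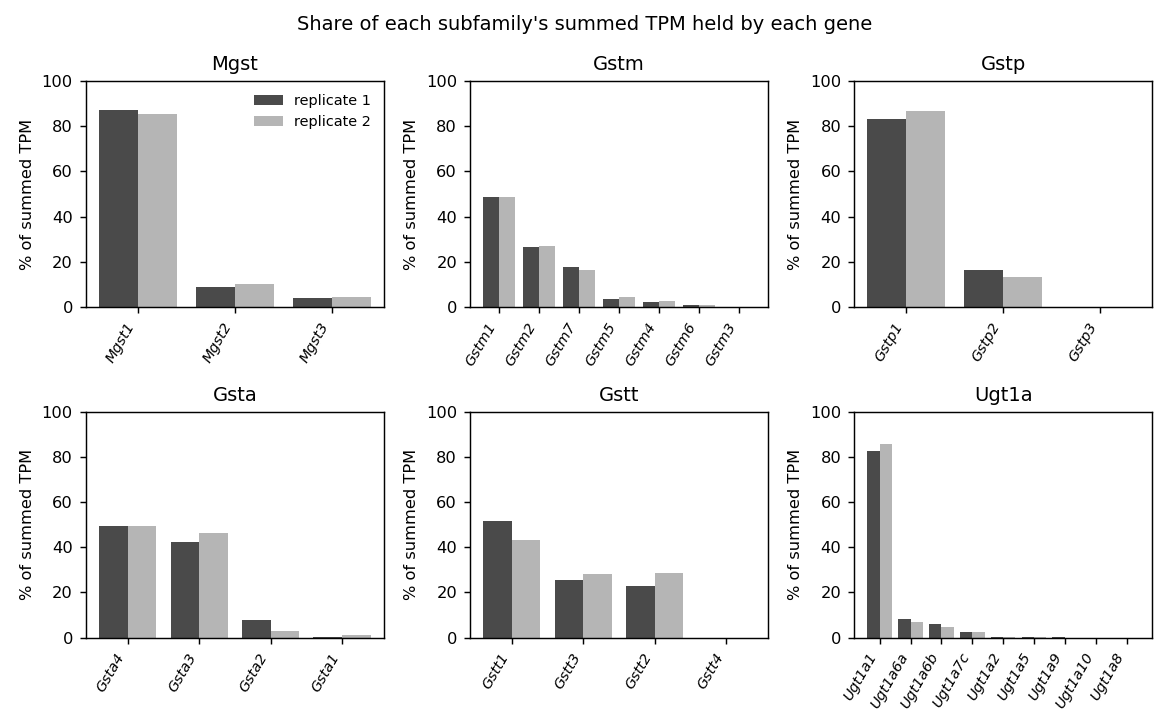
Share of each subfamily's summed TPM held by each of its genes, in percent, with replicate 1 as dark bars and replicate 2 as light bars. Mgst1, Gstp1 and Ugt1a1 hold over 80% of their classes in both animals, whereas the mu, alpha and theta classes are divided between several genes.

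UDP-glucuronosyltransferases were represented by the Ugt1a locus. Ugt1a1, the enzyme that conjugates bilirubin, measured 28.67 and 25.79 TPM in replicates 1 and 2, with intervals that did not overlap. It held 84.0% ± 2.24 of the summed TPM of the 9 Ugt1a genes (SD, n = 2). Ugt1a6a and Ugt1a6b, which conjugate planar phenols, followed at 2.48 ± 0.608 and 1.82 ± 0.516 TPM, and Ugt1a7c at 0.795 ± 0.134 TPM. Ugt1a9, Ugt1a5 and Ugt1a2 had between 0 and 6.96 counts, and Ugt1a8 and Ugt1a10 were listed at 0 in both animals. The locus lies on the plus strand of chromosome 1, and its genes end within the same few kilobases, since each has its own first exon and they share the exons after it. Ugt1a1 has the first exon closest to the shared exons. Of its 31-mers 58.5% occur in other genes, so its reads can be told from those of the other genes by its first exon alone. Ugt1a6a (88134809 to 88218997) and Ugt1a6b (88103252 to 88219003, mm10) are 98.4% identical over 1596 coding bases, with 26 mismatches and a longest identical run of 777 bases. Coding bases 121 to 360 are shown, which hold 19 of the 26 mismatches (capitals) and lie in the part before the long identical run.
Ugt1a6a coding: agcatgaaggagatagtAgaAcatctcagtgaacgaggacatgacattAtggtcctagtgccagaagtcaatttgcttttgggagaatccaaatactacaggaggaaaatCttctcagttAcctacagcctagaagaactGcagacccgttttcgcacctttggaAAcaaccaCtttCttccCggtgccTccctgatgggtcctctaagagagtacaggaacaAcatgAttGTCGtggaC
Ugt1a6b coding: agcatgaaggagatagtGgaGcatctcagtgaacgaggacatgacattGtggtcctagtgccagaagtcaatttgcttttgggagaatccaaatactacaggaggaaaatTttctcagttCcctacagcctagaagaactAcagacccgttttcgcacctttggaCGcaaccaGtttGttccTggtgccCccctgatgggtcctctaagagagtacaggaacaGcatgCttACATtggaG

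The Ugt2 and Ugt3 genes, some of which conjugate steroids and bile acids in the liver, were near the limit of detection. The 12 genes reached at most 0.095 TPM as a mean over the animals and 0.16 TPM in 1 animal (Ugt3a2, replicate 2), and Ugt2a1, Ugt2a2 and Ugt2b38 were listed at 0 in both animals. Their 12 genes had 16 counts in all in replicate 1 (0.396 CPM, exact Poisson interval 0.226 to 0.642 at 95%) and 62 in replicate 2 (1.81 CPM, 1.39 to 2.32). These intervals cover counting error only. The 9 genes with any count each had the higher CPM in replicate 2, the library with fewer counts. Ugt2b36 (3 counts) and Ugt3a1 (2 counts) had the same count in both animals, so their CPM differed by library size alone. In TPM Ugt2b36 was at 0.08 in replicate 1 and 0.06 in replicate 2. Ugt2b37 had 0 and 1 counts. Most liver markers moved the same way as the summed counts of the 12 genes. Alb was at 5.56 and 18.71 TPM, Apoa1 at 0.41 and 1.62 TPM and Fgb at 0.09 and 0.36 TPM, 7 of 8 were higher in replicate 2, and none was at 0. The median log2 ratio of that list was 1.11. The exception was Cyp2e1, at 85.90 and 47.02 TPM. The part of liver RNA in the Ugt2 and Ugt3 counts was not tested.

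Among sulfotransferases, Sult1a1, the phenol sulfotransferase, was the one gene above 10 TPM, measuring 14.45 and 12.42 TPM, with overlapping intervals. It overlaps Sgf29 (10.8 TPM) on the opposite strand, so part of its level is uncertain if the counting did not use strand. Sult5a1 was at 2.23 and 1.68 TPM and Sult4a1, a brain-enriched form with no well-defined substrate, at 2.14 and 1.56 TPM. Sult5a1 overlaps Gm20388 (5.73 TPM) on the opposite strand, with the same uncertainty. It had a nonsense-mediated decay transcript as its highest in both animals and both quantifications. Transcripts that are not annotated as protein-coding held 68.2% and 73.1% of its alignment-based TPM.

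The sulfotransferases known for acting on steroids were low. Sult2b1, which acts on cholesterol and pregnenolone, had 9 and 19 counts, and Sult1e1, the oestrogen sulfotransferase, had 19 and 5 counts. Sult2a1, a hydroxysteroid sulfotransferase, had 6 and 9.91 counts, and the 8 Sult2a genes together had 9 and 15 counts. The exact Poisson intervals of these sums, 0.102 to 0.422 CPM in replicate 1 and 0.245 to 0.721 CPM in replicate 2, overlapped. Sult3a1 and Sult3a2 summed to 5 and 15 counts. The genes listed at 0 in both animals were Sult1c1, Sult2a3, Sult2a4, Sult2a6 and Sult6b2, and the limit of detection allows each up to 0.0742 CPM in replicate 1 and 0.0874 CPM in replicate 2. In all, 11 of the 67 genes were at a count of 0 in both animals. Another 37 had at least 3 counts in each animal.

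No conjugating enzyme gene with ample counts was 2-fold apart between the animals. Genes were called different at a log2 ratio of at least 1 either way (TMM-scaled counts with 0.5 added), a mean count of at least 100, and separate deposited intervals of the TPM. None of the 24 conjugating enzyme genes at that count was called, against 1.09% of protein-coding genes (130 of 11889), so a count of 0 among 24 lies near that background. Their log2 ratios ran from -0.67 (Ugt1a6b) to 0.36 (Gstt2), and 21 of 24 (87.5%) were within 0.5 of 0, against 91.9% of protein-coding genes. The median size of the log2 ratio regardless of sign was 0.22, against 0.15 over protein-coding genes at that count. Intervals of 9 of the 24 genes (37.5%) did not overlap between the animals, against 27.4% of protein-coding genes. Those intervals describe estimation within 1 library, not variation between animals. Over the 30 genes with a mean count of 10 or more, the median log2 ratio was -0.17, with 9 genes higher and 21 lower in replicate 2, against -0.03 over 14620 protein-coding genes. The choice of scaling moves the median of all protein-coding genes by more than 0.1, to 0.08 with the deposited TPM, where the median of the members is -0.09. Relative to all genes the members were lower by 0.15 with TMM scaling and by 0.17 with the deposited TPM.

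Lowering the count limit to 10 called 1 of 30 members, Gsta2 (log2 ratio -1.30), against 1.97% of protein-coding genes. Beside this, 5 of the 7 adipocyte markers and 1 of 5 fibroblast markers were called lower in replicate 2, with medians of -1.05 and -0.59 over the lists. Adipoq stood at 105.3 and 53.74 TPM, no adipocyte marker was at 0, and Lep (2.04 and 2.95 TPM) was the one with higher TPM in replicate 2. The part of fat and connective tissue in the differences of the members was not tested.

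**Figure D3:**
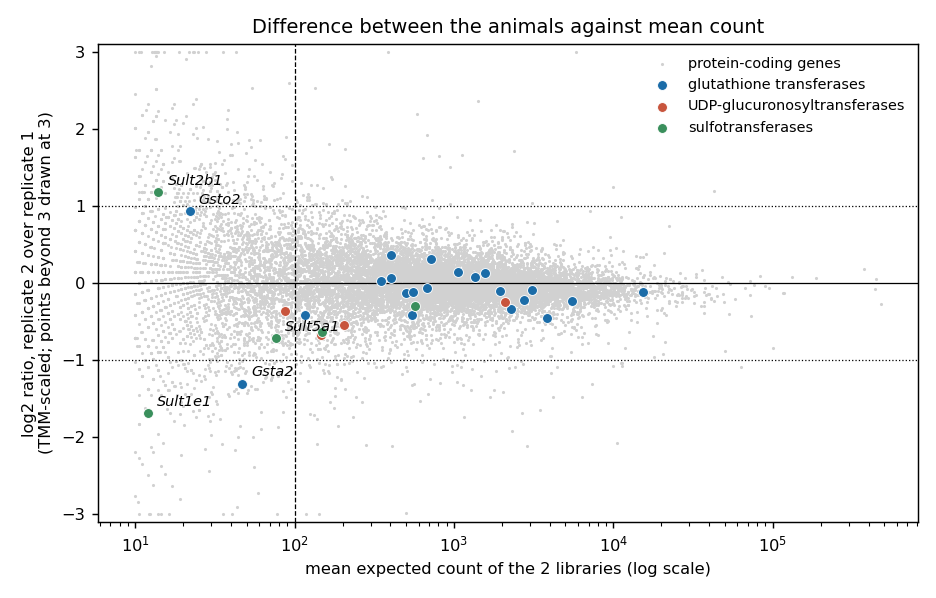
Log2 ratio of replicate 2 over replicate 1 against the mean expected count on a log axis, for protein-coding genes (grey) and conjugating enzyme genes (coloured by family), with dotted lines at 2-fold and a dashed line at 100 counts. Right of the dashed line the conjugating enzymes lie between -0.67 and 0.36, and of the plotted genes, which have a mean count of 10 or more, those beyond 2-fold (Gsta2, Sult1e1 and Sult2b1) have mean counts of 47.1, 12.0 and 14.0.

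The series holds a second quantification, made from a transcript index, and Mgst1 led in both. The order of some other genes changed, as Gstp1 had 136.5 TPM and Gstm1 125.5 TPM in the index-based table, against 139.9 and 145.3 TPM in the alignment-based one. None of the 26 genes at 1 TPM or more differed 2-fold between the tables, against 1.52% of protein-coding genes (189 of 12443). Index over alignment, the log2 ratios of TPM + 0.1 ran from -0.37 (Ugt1a6a) to 0.30 (Gstp2), and 20 of 26 were below 0. The median was -0.15, against -0.19 over protein-coding genes. Mgst1 had 836.4 TPM in the index-based and 773.3 TPM in the alignment-based table, Gstp2 30.28 and 24.60 TPM, and Gstm7 56.85 and 50.45 TPM. Ugt1a1 was lower in the index-based one, with 21.57 against 27.23 TPM. The tables named the same highest transcript in both animals for 15 of the 17 members at 10 TPM or more that have several transcripts. The exceptions were Gstp2, where Gstp2-201 led the alignment-based table with 81.0% ± 1.66 and the index-based table placed 1.81% and 0% there, and Gsta3, where Gsta3-201 led in replicate 1 of the alignment-based table (59.1%) and Gsta3-202 in the other 3 estimates. Gstp1 had 25.2% and 31.3% of its TPM in transcripts without a protein-coding annotation, and Gstt2 30.7% and 35.9%.

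**Figure D4:**
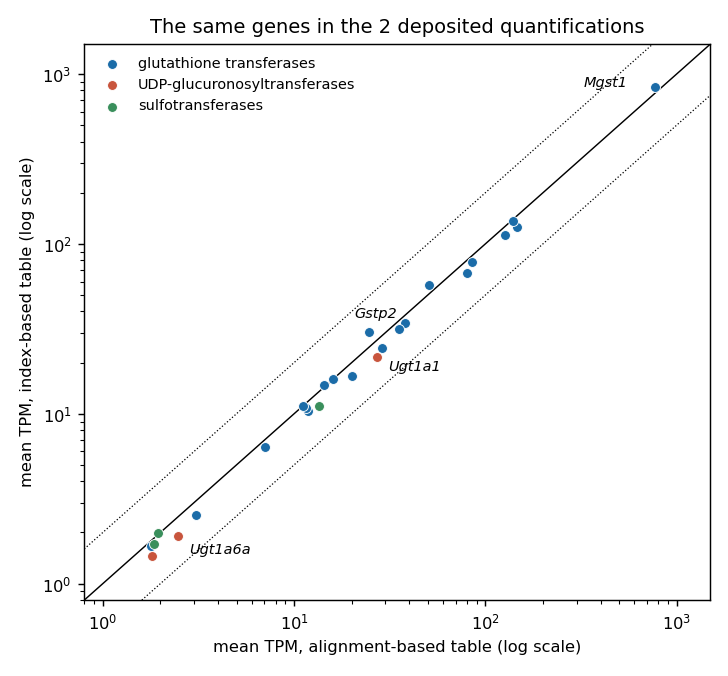
Mean TPM of the 26 genes in the alignment-based table against the index-based table, both on log axes, with a solid line at equality and dotted lines at 2-fold. Every point lies between the dotted lines, with Gstp2 farthest above equality and Ugt1a6a farthest below.

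Shared sequence went with wider deposited intervals. The width of the TPM interval was divided by the width that counting error alone would give at 95%. For the 7 of 26 genes with 20% or more of their 31-mers in other genes this ratio ran from 1.09 (Ugt1a1) to 3.53 (Gstp2) with a median of 1.69. For the other 19 genes it ran from 0.980 to 1.40 with a median of 1.06. In replicate 2 the interval of Gstp2 spanned 77.5% of its level, and that of Gstp1 15.3%. The level of the deposited intervals is not given in the file, so these ratios compare genes and not absolute precision. For Mgst1 the deposited TPM lies above its own upper bound in both animals (773.9 and 771.7 TPM).

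**Figure D5:**
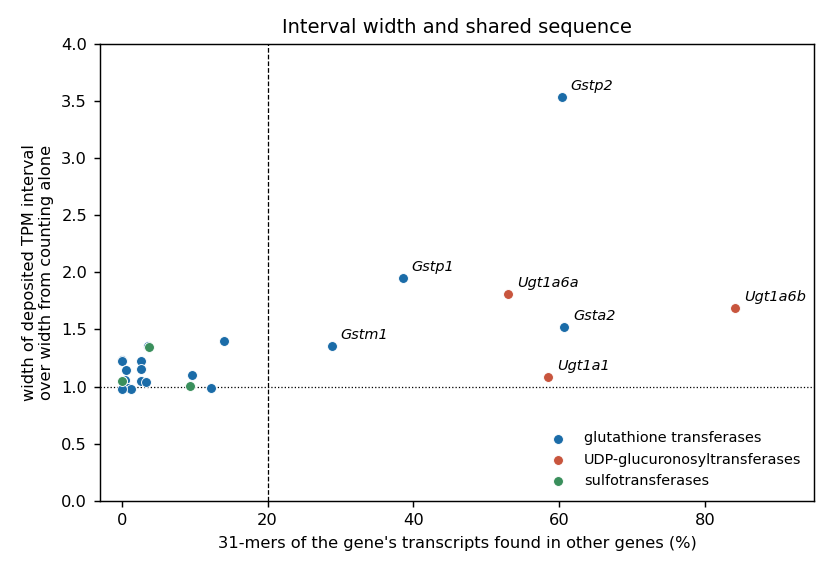
Width of the deposited TPM interval over the width from counting alone, averaged over the animals, against the percent of a gene's 31-mers that occur in other genes, for the 26 genes. Genes left of the dashed line at 20% lie between 0.980 and 1.40, and Gstp2 is highest at 3.53.

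The genes that supply glutathione, UDP-glucuronic acid and sulfate were mostly detected. Of the genes for glutathione synthesis and recycling, 12 of 14 were at 1 TPM or more in both animals, against 54.5% of protein-coding genes. Gclm, the modifier subunit of the rate-limiting ligase, was at 40.75 and 36.86 TPM, and Gclc, its catalytic subunit, at 16.38 and 14.67 TPM. Gsr, which regenerates reduced glutathione, was at 25.26 and 27.70 TPM, Gss at 23.08 and 26.10 TPM and Oplah, which recycles oxoproline, at 22.93 and 23.15 TPM. Ggt6 (1.37 and 2.87 TPM) was the one gene of the list called different, and Ggt1, the gamma-glutamyl transferase of kidney, was listed at 0 in both animals. For UDP-glucuronic acid, 8 of 8 genes passed 1 TPM and none was called. Among them Ugdh, which makes the donor, was at 27.50 and 28.63 TPM, Ugp2 at 30.03 and 23.73 TPM and Pgm1 at 37.14 and 36.32 TPM. Slc35b1, a transporter of that list, was at 21.61 and 23.92 TPM, and Slc35d1, another transporter of it, at 6.20 and 6.56 TPM. What they carry in this tissue was not tested.

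For the sulfate donor, 7 of 8 genes passed 1 TPM and none was called. Papss1, a synthase of PAPS, was at 21.46 and 24.36 TPM against 4.65 and 3.59 TPM for Papss2, and Bpnt1, which clears the spent donor, at 47.53 and 39.39 TPM. The PAPS transporter Slc35b2 was at 17.80 and 23.25 TPM, Impad1, a phosphatase of spent donor in the Golgi, at 13.42 and 13.88 TPM, and the sulfate transporter Slc26a2 at 9.11 and 13.60 TPM. A list chosen for the removal of conjugates held 7 genes, of which Sts had no value and the other 6 passed 1 TPM. Among them were Gusb, the lysosomal glucuronidase, at 19.81 and 21.94 TPM and Sumf2 at 22.32 and 27.36 TPM. Whether the genes of the list act on conjugates made by these families was not tested. The other genes of that list named by the rule, Arsb, Sumf1 and Naglu, had means of 18.06, 18.05 and 17.67 TPM. Of 18 transporters of conjugates 8 passed 1 TPM, led by Abcc5 (25.55 and 23.68 TPM), with Slco2b1 at 11.58 and 12.85 TPM, Slco3a1 at 11.80 and 11.32 TPM and Abcg2 at 9.25 and 11.38 TPM. By contrast Abcc2, the canalicular exporter of liver, was at 0.02 and 0.13 TPM. Of the list of other conjugating enzymes, Ephx1, the microsomal epoxide hydrolase, was at 111.6 and 140.9 TPM. Ephx2, the soluble epoxide hydrolase, was at 20.33 and 8.87 TPM and was the one gene of that list called different.

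Regulators of these families ranged from abundant to nearly undetected. Nr5a1, the steroidogenic factor of the cortex, was at 258.3 and 249.8 TPM and Nfe2l1 at 247.7 and 241.7 TPM. Nfe2l2, which encodes NRF2, was at 39.05 and 37.83 TPM and Keap1, its inhibitor, at 17.48 and 18.87 TPM. Arnt was at 22.23 and 24.96 TPM, whereas its partner Ahr was at 1.29 and 1.08 TPM. Mafg, a small partner of NRF2, was at 18.33 and 24.70 TPM. Nr1i2 and Nr1i3, the xenobiotic receptors PXR and CAR, reached at most 0.14 TPM, and Hnf4a at most 0.17 TPM. Of the 19 regulators 14 were at 1 TPM or more and 1, Maff (2.20 and 1.10 TPM), was called different. Of 18 known NRF2 target genes outside the families, 17 were at 1 TPM or more in both animals and none was called. Tkt was at 371.4 and 273.2 TPM, Prdx1 at 299.0 and 280.8 TPM and Taldo1 at 231.1 and 230.0 TPM, while Nqo1 was at 2.00 and 2.17 TPM. Of the other glutathione-dependent enzymes 21 of 23 passed 1 TPM and none was called, with Gpx1 at 250.8 and 259.7 TPM and Gpx4 at 263.7 and 229.3 TPM.

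The windows around the start sites were searched for 3 motifs. RefSeq start windows of 300 bases (250 before and 50 after a start, GRCm38.p6) were found for 59 of the 67 genes, and for 17 of the 19 at 10 TPM or more. Little of the alignment-based TPM of Gstt1 (0% and 2.06%) and Gstz1 (11.0% and 6.06%) began within 100 bases of their RefSeq starts. The windows of these genes may therefore miss the starts in use. Each motif was sought on both strands. The NRF2 element TGACNNNGC occurred for 4 of the 17 genes (23.5%; Mgst1, Gstm7, Gsta3 and Gstm5), for 4 of all 59 (6.78%) and for 14.0% of 27025 genes with a window. The Gstm7 match lies in the window of a start near which 2.07% and 3.26% of the gene's alignment-based TPM began. Near its other start the shares were 97.9% and 96.7%. The index-based quantification gave 24.9% and 31.9% to Gstm7-204, which begins near the start with the match. It gave 74.4% and 68.1% to Gstm7-201, which begins near the other start. The AHR core GCGTG occurred for 4 of the 17 (23.5%; Gstm1, Gstp1, Mgst3 and Gstm5) and for 35.2% of all genes, and in Gstm5 one such match overlapped the NRF2 element. The NR5A1 element AAGGTCA occurred for Gstk1 among the 17 (5.88%), for 7 of the 59 (11.9%) and for 5.38% of all genes. A match is a description of letters in this window, and an absent match says nothing of the factor.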

How the data were processed

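Each library came with a gene table and a transcript table from an alignment and with a further transcript table from a transcript index, built on mm10 and GENCODE M21 per the labels and file notes. The quantification programs are not named in what was used here. Expected counts, which need not be whole, were deposited unscaled by the authors. TPM was deposited after scaling by the authors over every feature of a library, and FPKM relative to length and depth per the file headers. The percent of a gene held by each transcript is a deposited column. The labels' protocol link names a directional kit, and the tables do not separate the parental alleles. All sequences shown or compared are those of the reference, and differences on the CAST alleles were not examined.

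Expected counts were rounded and scaled with edgeR 4.0.16 (TMM, R 4.3.3), with DESeq2 1.42.0 size factors as an alternative. No test was run, because the animals form 1 group. List medians used genes with a mean count of 10 or more, and TPM + 0.1 was compared between tables. Shared sequence is the share of a gene's 31-mers, over its GENCODE M21 transcripts, found in any other gene. Coding identity came from global alignment of the longest coding transcripts (biopython 1.88), and promoters came from RefSeq. Scripts ran in Python 3.11.15 and were tested on simulated data. Depth was 40453707 and 34319787 counts.

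Members and gene lists were chosen with earlier results of these data known. The rule named members at a mean of 10 TPM or more, members 2-fold apart, members listed at 0, and up to 5 genes per supply or regulator list. Other genes named, such as Papss2, Keap1, Ahr, Nqo1, Abcc2, Gsto2, the low sulfotransferases and the NRF2 targets, were chosen after their values were seen. Protein sequences were not used here. The alternatives were other TPM and count limits, scalings, pseudocounts, FPKM, the index-based table, rescaled TPM and each library left out.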

Additional observations from a re-analysis of the deposited data

Results flagged for a closer look

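Of the 8 genes with a matching symbol and no protein-coding transcript, Gstp-ps and Gstm2-ps1 had counts above the limit of 3 in at least 1 animal. Gstp-ps, a processed pseudogene on chromosome 1 related to the pi class, had 32 expected counts in replicate 1 and 41.37 in replicate 2, and the index-based table gave it 0 TPM in both animals. Gstm2-ps1, a processed pseudogene on chromosome 5 related to the mu class, had 3.92 expected counts in replicate 1 and 1.17 in replicate 2. These genes lie outside the comparisons above.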

How the results depend on the processing

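The values rest on 2 animals, and the direction of differences between them has no replicate check. No paired analysis was possible because both libraries belong to 1 group. The number of genes at 1 TPM or more (26) ranged from 20 with a limit of 5 TPM to 28 with TPM rescaled over nuclear protein-coding genes, and was 26 in each animal alone and 26 with the related genes Gm3776 and Gm10639 added, an alternative chosen after seeing the data. Rescaling raised the number at 100 TPM or more from 4 to 8, since it divides by a smaller sum. With a mean count of 10 or more, 1 gene (Gsta2) was called different between the animals (1.97% of protein-coding genes were), and with no filter 3 were (Gsta2, Ugt2b34 and Ugt2b1, against 1.42% of protein-coding genes), compared with 0 under every other setting run. The median log2 ratio was 0.041 over genes with a mean count of 1 or more, which adds sparse genes, against -0.17, and ran from -0.20 to -0.08 under the other settings. The share of summed TPM held by glutathione transferases was 97.5% in the index-based table and 92.6% in expected counts, which are not divided by length. No gene at 1 TPM or more was 2-fold apart between the tables under any setting run. Of the 76 recomputed log2 ratios of the 19 genes at 10 TPM or more, 57 stayed within counting error of the value reported, and 3 genes (Gsta3, Gstp1 and Gstt1) changed sign under some setting. Depth limits what can be said of the 41 genes under 1 TPM.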
